A study of Mus musculus with 6 samples.

Results

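Direct-pathway striatal projection neurons are the GABAergic neurons of the striatum that carry the dopamine receptor D1 (Drd1) and send their axons to the substantia nigra and the internal pallidum. Nuclei of these neurons were chosen by their raw UMI counts (unique molecular identifiers, counted RNA molecules) from a single-nucleus RNA-seq data set of mouse forebrain. A barcode was a member with under 10% mitochondrial UMIs, at least 2 UMIs of Rgs9, at least 3 of Pde10a and at least 1 of Drd1, at most 1 of Drd2, 0 of Adora2a, and at most 1 each of Slc17a7 and Lhx6. This rule found 1108 of 75867 nuclei (1.46%, exact Clopper-Pearson 95% interval 1.38 to 1.55). The levels of these 7 genes chose the nuclei and are given only as a description.

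The study took frozen forebrain from 3 WT and 3 Npc1-/- littermate mice at postnatal day 16. Npc1-/- mice were homozygous for the nih allele of Npc1, the gene of the late endosomal cholesterol transporter that is lost in Niemann-Pick type C disease. They were F1 hybrids of heterozygous BALB/cJ and C57BL6/J parents, and no mouse received a treatment. One 3′ droplet library was made per mouse, and the deposited matrix joins 6 libraries that are named by a barcode suffix from 1 to 6. No source used here ties a suffix to a mouse, so WT and Npc1-/- nuclei were not compared. Libraries are given singly, or by their lowest, median and highest value, and no test was run on them.

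Striatal projection neurons form a pair of output routes. Direct-pathway neurons use Drd1, which couples through the olfactory-type G protein to adenylyl cyclase 5 and raises cAMP, and they release GABA with substance P (made from Tac1) and dynorphin (from Pdyn). Indirect-pathway neurons use Drd2 and an adenosine receptor (Adora2a) and release GABA with enkephalin (from Penk). Both routes share most of their striatal genes, and each is further divided into striosome (patch) and matrix compartments.

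To show the genes that mark the members, promoters were read from RefSeq windows on GRCm38.p6 that run from 250 bases before to 50 bases after a start site. Drd1 (chosen by the rule), Tac1 and Pdyn (the direct-pathway neuropeptides) and Isl1 (a homeodomain factor of direct-pathway neurons) are shown 5′ to 3′ in the direction of transcription. Capitals mark TGACG or its reverse complement CGTCA, the half-site of the cAMP response element, searched on both strands.

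The windows are Drd1 at chr13:54055609-54055908, minus strand, Tac1 at chr6:7554811-7555110, plus strand, Pdyn at chr2:129699889-129700188, minus strand and Isl1 at chr13:116309639-116309938, minus strand.
Drd1: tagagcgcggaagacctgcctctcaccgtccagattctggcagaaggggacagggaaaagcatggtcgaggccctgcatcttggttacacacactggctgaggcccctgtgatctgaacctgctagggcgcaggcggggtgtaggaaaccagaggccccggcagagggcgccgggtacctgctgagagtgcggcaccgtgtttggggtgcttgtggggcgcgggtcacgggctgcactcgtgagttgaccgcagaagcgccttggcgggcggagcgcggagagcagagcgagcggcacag
Tac1: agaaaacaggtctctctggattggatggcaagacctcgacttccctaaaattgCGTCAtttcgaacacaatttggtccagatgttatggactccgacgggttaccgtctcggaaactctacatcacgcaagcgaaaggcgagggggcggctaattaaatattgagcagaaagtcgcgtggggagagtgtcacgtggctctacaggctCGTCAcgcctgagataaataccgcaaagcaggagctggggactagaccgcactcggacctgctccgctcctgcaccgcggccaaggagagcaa
Pdyn: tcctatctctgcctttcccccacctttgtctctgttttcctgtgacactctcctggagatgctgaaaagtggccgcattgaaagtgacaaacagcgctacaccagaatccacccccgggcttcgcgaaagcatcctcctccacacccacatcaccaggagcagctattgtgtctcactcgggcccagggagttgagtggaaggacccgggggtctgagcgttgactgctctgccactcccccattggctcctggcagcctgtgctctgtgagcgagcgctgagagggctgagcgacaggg
Isl1: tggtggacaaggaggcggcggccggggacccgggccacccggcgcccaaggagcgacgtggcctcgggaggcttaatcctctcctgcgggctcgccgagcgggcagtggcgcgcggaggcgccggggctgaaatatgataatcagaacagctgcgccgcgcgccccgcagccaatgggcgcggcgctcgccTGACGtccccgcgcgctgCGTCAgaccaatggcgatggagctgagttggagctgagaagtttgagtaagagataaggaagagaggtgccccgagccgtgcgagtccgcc

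The Tac1 window holds 2 half-sites, which begin at positions 54 and 208 counted from the 5′ end, and the Isl1 window holds 2, at positions 192 and 210. The Drd1 and Pdyn windows shown hold none. Among all 32851 windows of this length, 20.8% hold the half-site. Of the 10 genes of the direct-pathway list used below, 7 matched the RefSeq windows by symbol, with 9 windows, of which 4 (Tac1, Slc35d3, Ebf1 and Isl1) hold it. Of 9 indirect-pathway genes, 5 matched with 5 windows, of which 2 (Gpr6 and Ptprm) hold it. The palindromic EBF motif stood in 0.904% and the forkhead motif TGTTTAC in 3.65% of all windows, and in none of the 14 windows of both lists. A match is a description of these letters and not a binding site.

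Libraries 1 to 6 held 234, 208, 215, 177, 151 and 123 members. The members' share of a library's nuclei was 1.29% at the lowest, 1.45% at the median and 1.70% at the highest, a narrow range beside that of their number. The members had a median of 8764 UMIs (1908 to 48020), against 4957 in all nuclei, and their median per library was between 7946 and 9665. Mitochondrial UMIs were low in the members (median 0.0589%), with library medians between 0.0141% and 0.121%. Of all barcode sequences 631 occurred in over 1 library, 12 members carried one of them, and 0 were shared by members of different libraries.

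Drd1 was counted sparsely. Of the members 801 had 1 Drd1 UMI, 229 had 2 and 78 had 3 or more. Among 6059 nuclei that met the Rgs9, Pde10a, Slc17a7 and Lhx6 limits, 18.3 per 100 were members. An indirect-pathway gate (at least 2 UMIs of Drd2, 0 of Drd1) took 23.2 per 100. At least 1 Drd1 UMI and at least 2 of Drd2 were counted in 1.93 per 100. No Drd1 UMI, at most 1 of Drd2 and no Adora2a were counted in 48.5 per 100. Of the members, 41 had 1 Drd2 UMI beside Drd1. The gates are not mirror images, since the rule takes 1 Drd1 UMI and allows 1 of Drd2. The indirect-pathway gate asks for 2 of Drd2, allows no Drd1 and sets no limit on Adora2a. The rule takes only nuclei in which Drd1 was counted. Drd1 UMIs were also counted in gates of other cells, and whether they came from those cells, free RNA or doublets was not tested. These gates were set by their own markers. Microglia had at least 3 UMIs summed over Csf1r, Cx3cr1 and P2ry12. Endothelial cells had at least 3 of Flt1 and 1 of Cldn5. Cortical excitatory neurons had at least 3 of Slc17a7 with a further marker. Drd1 was seen in 6.11% of the microglia gate (median 3619 UMIs), 4.49% of the endothelial gate (4579) and 7.96% of the cortical excitatory gate (13254). After thinning each nucleus to 3000 UMIs these shares were 4.03%, 2.68% and 2.22%. The members' share after thinning was 42.7%. All members had a Drd1 UMI by the rule before thinning, so their share cannot be set against those of the other gates. Thinning left out 1015 microglial, 670 endothelial, 6 cortical excitatory and 14 member nuclei with fewer UMIs.

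Lists of genes that the rule did not read describe the members further. They are no test of the label, since lists and members were chosen with results of these data known. Summed over the direct-pathway list (Tac1, Pdyn, Isl1, Chrm4, Eya1, Ebf1, Sfxn1, Slc35d3, Zfp521 and Asic4), members held 655 CPM (the gene's UMIs per 1000000 UMIs summed over the nuclei), against 157 CPM in the 1405 nuclei of the indirect-pathway gate. Ebf1 alone was 366 of the 655 CPM and 60.1 of the 157 CPM. In the endothelial gate the same list held 1768 CPM, of which 1502 CPM were Ebf1. Summed over the indirect-pathway list (Penk, Gpr6, Gpr52, Sp9, Grik3, Plxdc1, Upb1, Ptprm and Necab1), they held 339 CPM against 1302 CPM. The direct list outnumbered the indirect list in 71.2% of the members and the reverse held in 22.3%, while in the indirect-pathway gate the shares were 2.78% and 95.4%. Over all 75867 nuclei these shares were 23.1% and 57.2%, and in the cortical excitatory gate 6.24% and 85.1%. The lists are thus not on an even scale. So the members leaned to the direct list as a group, and a minority did not as single nuclei.

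The lists moved with the number of Drd1 UMIs. The direct list summed to 446 CPM in the 2939 nuclei that met every other limit but had 0 Drd1 UMIs, and to 631, 720 and 670 CPM in members with 1, 2 and 3 or more. The indirect list summed to 580, 338, 346 and 327 CPM in the same order. A list of 22 genes common to striatal projection neurons summed to 8387, 10992, 11990 and 12726 CPM. The step lay between 0 and 1 UMI for both pathway lists. Depth moved with these classes, since their medians were 7145, 8363, 9491 and 11250 UMIs, and its part was not tested.

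**Figure D1:**
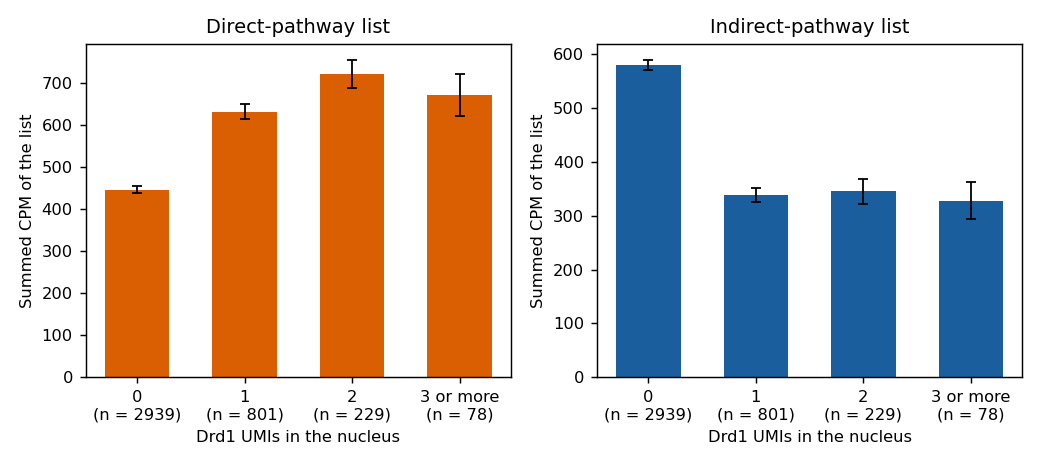
Summed CPM of the direct-pathway list (left) and the indirect-pathway list (right) in nuclei with 0, 1, 2 and 3 or more Drd1 UMIs that met the other limits of the rule, with exact Poisson 95% intervals as error bars. The direct list goes from 446 CPM at 0 to 631 CPM at 1 Drd1 UMI, and the indirect list from 580 to 338 CPM.

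Just outside and just inside the other limits, values were as follows. Nuclei with 1 Rgs9 UMI (269) held 336 CPM of the direct list and 644 CPM of the indirect list, and those with 2 (157) held 499 and 517 CPM. At Pde10a, 24 nuclei with 2 UMIs held 473 and 510 CPM and 21 nuclei with 3 held 388 and 935 CPM. At Drd2, 11 nuclei with 2 UMIs held 443 and 600 CPM and 41 nuclei with 1 held 531 and 402 CPM. One Adora2a UMI (55 nuclei) went with 572 and 392 CPM. At Slc17a7, 59 nuclei with 2 UMIs held 437 and 382 CPM and 270 with 1 held 670 and 394 CPM. At Lhx6, 5 nuclei with 2 UMIs held 408 and 949 CPM and 14 with 1 held 554 and 471 CPM. Nuclei at the lower edge of Rgs9 and Pde10a held less of the direct list than the members as a whole.

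The next question was how direct-pathway nuclei differed from indirect-pathway nuclei of the same libraries. Of 11463 genes with at least 5 CPM over both gates, 44 were at least 2-fold higher in the members (0.384%) and 32 at least 2-fold lower (0.279%), with no replicate test behind these counts. Some of these genes passed the 5 CPM limit only through the gate where they were high. Without nuclei with 2 or more UMIs of glial and vascular markers, 64 were higher and 61 lower. In every library 644 genes were higher (5.62%) and 481 lower (4.2%). The median log2 ratio of all these genes was 0.02. Of the direct-pathway list 8 of 10 genes had the required level, all 8 were above 0, 7 were at least 2-fold higher, 7 were higher in all 6 libraries, and their median log2 ratio was 1.92. Of the indirect-pathway list 8 of 9 were read, and all 8 were at least 2-fold lower and lower in all 6 libraries, with a median of -2.26. Chrm4 (the M4 muscarinic receptor), Slc35d3 and Gpr52 were below the limit, with 9, 46 and 11 UMIs in the members. Isl1, Pdyn, Upb1, Gpr6 and Sp9 passed the limit only through the gate where they were high and were bound to differ, so these counts and medians are a description and no support for the label. Many of these genes were put on the lists because they are known to follow Drd1 or Drd2, and lists and members were chosen with results of these data known.

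Ebf1, Isl1, Zfp521, Tac1 and Pdyn, factors and neuropeptides of the direct-pathway list, were higher in the members of every library. Ebf1, a helix-loop-helix factor of direct-pathway development, was at 330, 368 and 420 CPM in the lowest, median and highest library of the members and at 19.4, 59.0 and 94.0 CPM in the indirect-pathway nuclei (log2 ratio 2.61, exact binomial 95% interval 2.50 to 2.72). The intervals cover counting error only. All 6 member values lay above all 6 indirect-pathway values. Blood vessel nuclei also hold Ebf1, and without nuclei with 2 or more UMIs of glial and vascular markers the ratio was 3.68. Isl1 was at 15.6, 18.3 and 27.3 CPM against 0.607, 3.03 and 5.56 CPM (2.56, 2.09 to 3.06), again with no overlap. Zfp521, a zinc-finger partner that binds EBF factors, was at 91.2, 105 and 134 CPM against 28.0, 31.8 and 37.6 CPM (1.72, 1.56 to 1.88). Without nuclei with 2 or more UMIs of glial and vascular markers the Zfp521 ratio was 2.46.

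Tac1, the precursor of substance P, was at 32.3, 51.9 and 65.5 CPM in the members and at 5.95, 13.2 and 22.2 CPM in indirect-pathway nuclei (log2 ratio 1.87, 1.63 to 2.11). The ranges did not overlap. Pdyn was at 4.99, 10.7 and 20.1 CPM against 0.595, 1.58 and 2.82 CPM (2.61, 1.96 to 3.32), from 119 and 23 UMIs. Both peptides were caught in few nuclei, Tac1 in 34.8% and Pdyn in 9.12% of the members, and in 10.3% and 1.42% of the indirect-pathway nuclei. In the cortical excitatory gate, which is deeper (median 13254 against 8367 UMIs in indirect-pathway nuclei), the shares were 8.37% and 1.94%. At 3000 UMIs, Tac1 was seen in 13.6% of the members, 3.59% of indirect-pathway, 2.53% of cortical excitatory and 4.95% of endothelial nuclei, and its levels in the last 3 were 14.2, 6.25 and 16.6 CPM. The share and level of Tac1 in indirect-pathway nuclei thus lay between those of the cortical excitatory and endothelial gates.

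The remaining genes of the list gave ratios from 0.77 to 1.96. The channel gene Asic4 was at 16.6 to 26.8 CPM in the members' libraries and at 1.78 to 9.93 CPM in indirect-pathway nuclei (log2 ratio 1.96), without overlap. Sfxn1, a mitochondrial carrier gene that lies 16164 bases from Drd1 on chromosome 13, was at 31.2 to 46.3 against 14.6 to 22.4 CPM (1.07). Eya1 was at 23.7 to 51.2 against 9.52 to 26.8 CPM (0.77, higher in 5 libraries), and its ranges overlapped.

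**Figure D2:**
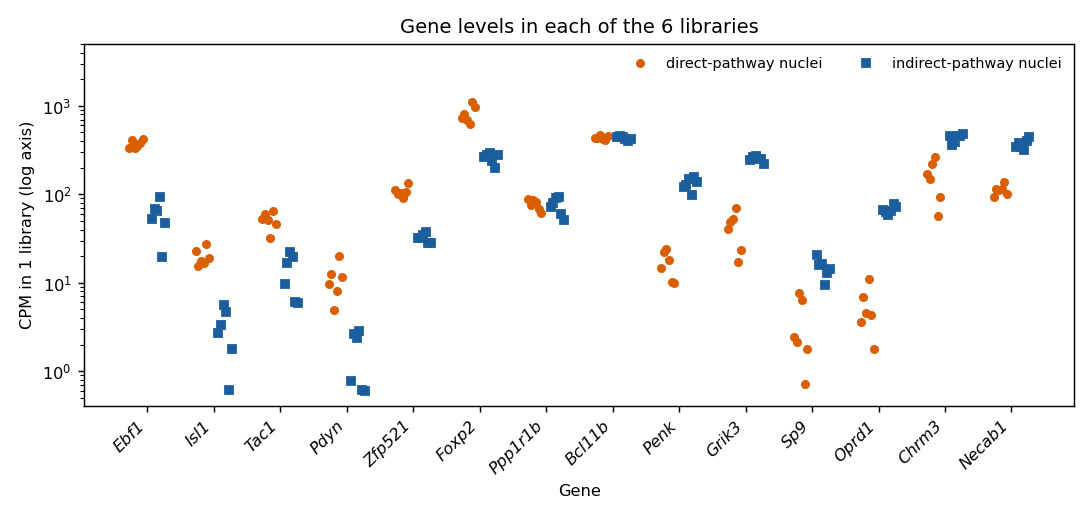
CPM (log axis) of 14 genes in each of the 6 libraries, for direct-pathway nuclei (circles) and indirect-pathway nuclei (squares), 1 point per library. Ebf1, Isl1, Tac1, Pdyn, Zfp521 and Foxp2 are higher in the direct-pathway nuclei of every library, Ppp1r1b and Bcl11b overlap, and Penk, Grik3, Sp9, Oprd1, Chrm3 and Necab1 are lower.

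Beyond the list, the genes with the highest ratios that were higher in all 6 libraries included Lingo2, Cntnap3 and Sntg2. Lingo2, a leucine-rich repeat membrane protein, was at 2534, 2838 and 3066 CPM in the members and at 497, 698 and 1103 CPM in indirect-pathway nuclei (log2 ratio 1.95, 1.92 to 1.98). Cntnap3, of the contactin-associated protein family, was at 78.4, 85.0 and 110 against 7.28, 21.4 and 26.5 CPM (2.14), and the syntrophin gene Sntg2 at 80.9, 85.5 and 103 against 11.5, 19.2 and 23.5 CPM (2.18). None of these ranges overlapped. The lincRNA 9330185C12Rik (chromosome 1, 113891385 to 113964134) had the highest ratio (3.16, 2.46 to 3.93) on 144 and 19 UMIs. Its ratio was 4.09 without nuclei with 2 or more glial UMIs and 3.75 without library 2. Impg1, a matrix proteoglycan gene known from the retina, followed (2.75, 2.26 to 3.28) on 223 and 39 UMIs. Both passed the 5 CPM limit only through the members (1.43 and 2.94 CPM in indirect-pathway nuclei) and were bound to differ.

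Genes of the indirect pathway were low in the members. Penk was at 9.88, 16.4 and 24.0 CPM in the members and at 97.8, 133 and 158 CPM in indirect-pathway nuclei (log2 ratio -2.90, -3.12 to -2.68). Oprd1, the delta opioid receptor, was at 1.80, 4.43 and 11.0 against 58.4, 65.5 and 77.7 CPM (-3.59, -3.98 to -3.21). Neither range came near the other. Grik3, a kainate receptor subunit, was at 17.3, 44.7 and 70.4 against 221, 251 and 269 CPM (-2.50). Nt5e, the ectonucleotidase that makes adenosine from AMP, was at 5.39, 13.2 and 23.7 against 50.8, 60.2 and 101 CPM (-2.29). Gpr6, an orphan receptor of indirect-pathway neurons, had 17 UMIs in the members against 136 (-2.76, but -3.58 without library 2), and the zinc-finger factor Sp9 had 42 against 202 (-2.03). Under other settings the Sp9 ratio was between -2.64 and -1.97.

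The ratio of Upb1, a pyrimidine catabolism enzyme, rested on 2 UMIs in the members against 158 (log2 ratio -6.07, -9.12 to -4.19), and it was between -6.87 and -5.66 with 1 library left out, lowest without library 6 and next lowest without library 1, and at -5.20 without nuclei with 2 or more glial UMIs. Upb1 (75401115 to 75441679) lies on the same strand of chromosome 10 as Adora2a (75316877 to 75334784), of which the rule allowed no UMI. The transcript A830012C17Rik (-2.72) overlaps the 5′ end of Penk on the opposite strand on chromosome 4 and otherwise lies outside it, and no source used here says whether counting was by strand. Gm30313, a lincRNA (-2.33), and the myosin Myo5c (-1.87, but down to -2.47 under other settings) were the others among the 10 lowest. A830012C17Rik, Gm30313 and Myo5c were at 2.40, 2.94 and 3.38 CPM in the members. They passed the 5 CPM limit only through the indirect-pathway nuclei and were bound to differ. Nuclei of the indirect pathway were chosen by Drd2, so all of these values describe the gates.

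**Figure D3:**
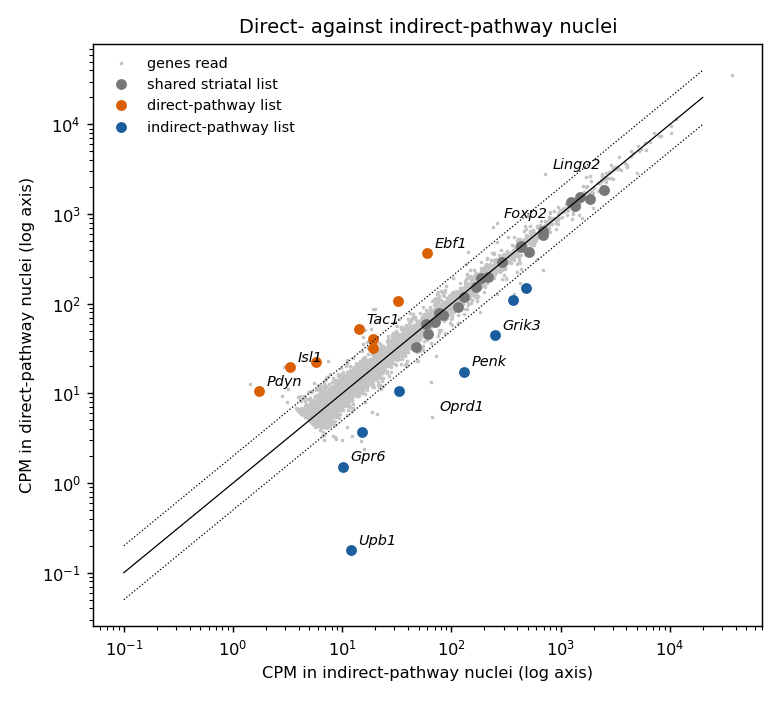
CPM in direct-pathway nuclei against CPM in indirect-pathway nuclei (log axes) for the 11463 genes read, without the 7 genes of the rule. The solid line marks equality and the dotted lines 2-fold. The 22 shared striatal genes lie within 2-fold, and 7 of 8 direct-pathway and 8 of 8 indirect-pathway list genes lie outside.

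The shared striatal list was close to equal. All 22 genes were read, none differed 2-fold (0.384% of all genes were 2-fold higher and 0.279% lower), and their median log2 ratio was -0.13. Ppp1r1b (DARPP-32, the phosphatase inhibitor that integrates dopamine signals) was at 62.0, 78.9 and 89.5 CPM in the members and at 51.7, 76.5 and 93.6 CPM in indirect-pathway nuclei. Bcl11b (CTIP2) was at 410, 437 and 473 against 402, 433 and 452 CPM, and Rarb, a retinoic acid receptor, at 1409, 1516 and 1934 against 1384, 1512 and 1702 CPM. These ranges overlapped. Of the 22, 9 were lower in all 6 libraries, beside 4.2% of all genes, with the 3 lowest being Rasd2 (-0.51), Gng7 (-0.43) and Foxp1 (-0.41), and the highest were Arpp21 (0.12), Ppp1r1b (0.05) and Rarb (0.04).

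Of 23 genes of the dopamine and cAMP cascade, all read, none differed 2-fold (0.384% of all genes were 2-fold higher and 0.279% lower). In all 6 libraries 1 was higher and 7 were lower (5.62% and 4.2% of all genes), with a median of -0.10. Pde4b, a cAMP phosphodiesterase, was the lowest (-0.79) at 722, 887 and 980 CPM in the members and 1410, 1556 and 1698 CPM in indirect-pathway nuclei, and its ranges did not overlap. The G protein beta subunit Gnb5 (-0.47) and Gng7 (-0.43) came next. Arpp21 (0.12) and the kinase Mapk3 (0.07) were near the upper end.

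Of 27 genes of receptors for modulators 24 were read, 3 were at least 2-fold lower and none 2-fold higher (0.279% and 0.384% of all genes), with a median of -0.07. The 3 were Oprd1, Gpr6 and Chrm3, the M3 muscarinic receptor, which was at 57.6, 159 and 261 CPM in the members against 365, 453 and 481 CPM (-1.35). At the other end were Drd3, the D3 receptor (0.98), Grm8, a presynaptic glutamate receptor (0.67), and the serotonin receptor Htr6 (0.47). Drd3 was at 13.3, 22.4 and 36.9 against 6.34, 12 and 19.9 CPM, with overlap, and higher in all 6 libraries. Grm8 was at 336, 367 and 432 against 192, 236 and 306 CPM, without overlap. The kappa opioid receptor Oprk1, which binds dynorphin, was at 24.5, 30.1 and 35.8 against 16.7, 21.6 and 27.4 CPM (0.45).

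None of 33 voltage-gated and other ion channel genes reached 2-fold, and their median log2 ratio was 0.01. Of all genes only 0.384% were at least 2-fold higher and 0.279% at least 2-fold lower, which is the scale for the receptor lists below too. The highest were Kcnj6 (0.51) and Kcnj3 (0.33), subunits of G protein-gated potassium channels. The lowest were the calcium channel Cacna1e (-0.41) and the potassium channels Kcnd3 (-0.28) and Kcnc2 (-0.27). Of 14 glutamate receptor subunits Grik3 alone passed 2-fold. The next lowest were Gria3 (-0.09) and Grin1 (-0.06), and the highest were Grin3a (0.32), Grik2 (0.30) and Gria4 (0.26). Of 14 GABA receptor subunits, GABA-B included, none did, from Gabra3 (-0.43), Gabrg3 (-0.19) and Gabra4 (-0.12) to Gabbr2 (0.13), Gabra5 (0.12) and Gabbr1 (0.05). With at least 2 Drd1 UMIs the signs of Grin3a (-0.023) and Gabbr2 (-0.0046) turned, and without nuclei with 2 or more glial UMIs that of Gabra4 (0.0054).

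Among 25 of 30 transcription factors that were read, 5 were at least 2-fold higher in the members and 1 (Sp9) lower, beside 0.384% and 0.279% of all genes. The 5 were Ebf1, Isl1, Zfp521, Foxp2 and Ikzf1, of which the first 3 are also on the direct-pathway list, as Sp9 is on the indirect-pathway list. Foxp2, a forkhead factor, was at 617, 766 and 1119 CPM against 197, 268 and 294 CPM (1.60, 1.54 to 1.66), without overlap. Ikzf1 (Ikaros) was at 9.35, 14.6 and 22.7 against 2.43, 5.37 and 12.2 CPM (1.05), with overlap. After Sp9 the lowest were Zfhx3 (-0.81, 215 to 287 against 400 to 449 CPM) and Six3 (-0.77), a factor of indirect-pathway development. Of 27 axon guidance genes, all read, Unc5d, a netrin receptor, was the one past 2-fold (-1.55), at 135, 231 and 344 CPM against 647, 686 and 721 CPM. Sema3e (-0.55) and Epha6 (-0.31) followed, and Epha3 (0.56), Slit1 (0.54) and Sema5b (0.53) were the highest.

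Activity and sterol genes stayed under 2-fold, as most genes did (0.384% of all genes were 2-fold higher and 0.279% lower). Of 16 immediate early genes 13 were read and none passed 2-fold, with Egr4 (-0.75), Jun (-0.42) and Dusp1 (-0.20) lowest and Fosl2 (0.36), Nr4a3 (0.12) and Egr1 (0.08) highest. None of 24 genes of cholesterol transport and synthesis did either. They ran from Soat1 (-0.18), Insig1 (-0.15) and Npc1 (-0.14) to Dhcr7 (0.36), Lipa (0.21) and Abcg4 (0.10). Npc1 itself was at 17.3, 22.5, 21.3, 22.5, 27.3 and 21.6 CPM in the members of libraries 1 to 6, from 243 UMIs. Since no library could be tied to a mouse, these values do not check the genotype.

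Against all 74759 other forebrain nuclei, the members carried a broad striatal program. Of 12344 genes read, 262 were at least 2-fold higher (2.12%) and 1277 at least 2-fold lower (10.3%), and the median log2 ratio of all genes was -0.23. Of the shared striatal list 21 of 22 were above 0, 18 were at least 2-fold higher and 21 were higher in every library, with a median of 1.71. Of all genes 3042 of 12344 were above 0 and 10.8% were higher in every library. The highest were Rarb (3.00), the actin cross-linker Actn2 (2.55) and Adcy5, the striatal adenylyl cyclase (2.51). The lowest were Arpp21 (-0.05), which was also high elsewhere, the GABA-synthesizing enzyme Gad1 (0.67) and the phosphatase Ptpn5 (0.77). The rule chose nuclei by Rgs9 and Pde10a, so these genes follow from the choice of striatal nuclei and are no separate support.

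The 10 genes with the highest ratio over the other nuclei in every library included Rarb and Actn2, Sh3rf2 (118 against 13.6 CPM, log2 ratio 3.12), the endopeptidases Mme (neprilysin, 99.4 against 16.9 CPM, 2.56) and Phex (61.1 against 9.54 CPM, 2.68), and 5 noncoding transcripts. The latter were Mhrt (3.16), Gm10754 (3.04), 1700003D09Rik (2.85), Gm12339 (2.79) and Gm50024 (2.67). Gm12339, at 4.67 CPM in the other nuclei, passed the 5 CPM limit only through the members and was bound to differ. 1700003D09Rik overlaps Ppp1r1b on the opposite strand, Mhrt overlaps Myh7 and Gm12339 overlaps Doc2b, so their counts share positions with those genes. Among cascade genes Adcy5, Pde1b and Gng7 were the highest (2.51, 2.30 and 2.26), and Mapk3 (-0.48), Prkaca (-0.26) and Ppp1ca (-0.23) the lowest.

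The direct-pathway list was less particular against the whole forebrain. Of the 5 genes with the required level, Tac1 (51.9 against 15.5 CPM, 1.74) and Ebf1 (366 against 141 CPM, 1.38) were at least 2-fold higher, followed by Zfp521 (0.64) and Sfxn1 (0.36), and Eya1 was at -0.26. Ebf1 was counted in 68.0% of the members and in 92.4% of nuclei of an endothelial gate. Of the 24 sterol genes 22 were below 0, 17 in every library, with a median of -0.52. Most genes were below 0 in this comparison (9302 of 12344, and 41.8% in every library, with a median of -0.23). Lipa (lysosomal acid lipase, -1.30), Abca1 (-1.25) and Insig1 (-0.84) were the lowest and Cyp46a1, the neuronal cholesterol 24-hydroxylase, the highest (0.35), with Abcg1 (0.05) and Scap (-0.05) next.

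Direct-pathway nuclei varied among themselves. The compartment split took nuclei with at least 2 UMIs summed over Oprm1 (the mu opioid receptor) and Kremen1, and more of these than of Epha4 and Id4, as striosome-type, and the reverse as matrix-type. It gave 109 striosome-type and 729 matrix-type nuclei, 9.84% and 65.8% of the members, with between 12 and 27 and between 77 and 153 nuclei per library. Median UMIs were close (10117 and 9510). The 4 genes of the split are no results.

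Of 11407 genes read, 116 were at least 2-fold higher (1.02%) and 280 at least 2-fold lower (2.45%) in striosome-type nuclei, many of them from few UMIs. Some passed the 5 CPM limit only through the side where they were high. The higher count was 194 without library 3 and 216 without nuclei above the 90th percentile of UMIs, and at 20 CPM or more 21 genes were higher and 32 lower. In every library 2.63% of genes were higher and 3.25% lower. All 4 striosome list genes outside the split were above 0, 3 of them at least 2-fold, with a median of 1.13. Sema5b, a semaphorin, was at 166 CPM in striosome-type against 66.2 CPM in matrix-type nuclei (log2 ratio 1.33, 1.08 to 1.56), Lypd1 at 62.4 against 26.5 CPM (1.23), Khdrbs3 at 232 against 114 CPM (1.02) and the factor Bach2 at 229 against 116 CPM (0.98). Sema5b, Khdrbs3 and Bach2 were higher in all 6 libraries and Lypd1 in 5. Other lists moved with this split too. Of all genes 5960 were above 0 and 5446 below, with a median of 0.02. All 6 eccentric genes read were above 0 (median 0.86, 2 at least 2-fold), as were 4 of 5 indirect-pathway genes (median 0.54) and the 3 excitatory neuron genes read (median 0.64). Of 8 direct-pathway genes read 5 were below 0 (median -0.23). The 5 oligodendrocyte and 3 microglial genes read were below 0 (medians -0.44 and -0.35). The part of these lists in the ratios was not tested. The matrix list outside the split gave smaller values: Rasgrp2 was at 54.2 against 82.4 CPM (-0.61), Sv2b at 118 against 149 CPM (-0.33), Calb1 (calbindin) at 59.1 against 62.5 CPM (-0.08) and Gda at 126 against 118 CPM (0.08). None of these 4 reached 2-fold or held its direction in every library.

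The highest ratios in striosome-type nuclei were of the receptor phosphatase Ptpru (22.2 against 5.25 CPM, 2.08, 1.32 to 2.81), Cacng5, an AMPA receptor auxiliary subunit (1.88, 1.08 to 2.65), Gm49906 (1.79), Ipcef1 (1.52), Gm31045 (1.49), the myosin Myo1f (1.48), Galnt10 (1.46) and the calmodulin-dependent phosphodiesterase Pde1c (392 against 143 CPM, 1.46, 1.30 to 1.61). Gm31045 and Myo1f were at 4.38 and 4.13 CPM in matrix-type nuclei. Both passed the 5 CPM limit only through striosome-type nuclei and were bound to differ. The 8 lowest, among them Bmp4 (-3.31, -8.63 to -0.78) and Rfx2 (-3.29, -8.61 to -0.76), had only 1 or 2 UMIs in striosome-type nuclei and wide intervals. All 8 passed the limit only through matrix-type nuclei and were bound to differ. At 20 CPM or more, a limit added after these values were seen, the lowest that held in every library included the channel Trpc6 (-1.75, -2.52 to -1.07), the endothelial transporter Slco1a4 (-1.64), the ectonucleotidase Entpd1 (-1.52) and Cftr (-1.36). Ebf1 was at 301 against 398 CPM (-0.40) and Zfp521 at 65.7 against 120 CPM (-0.88), while Tac1 (59.9 against 47.5 CPM, 0.33, -0.05 to 0.70) and Pdyn (9.03 against 9.50 CPM, -0.07, -1.14 to 0.85) had intervals that include 0, although Tac1 was higher in 6 of 6 libraries.

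Further axes were chosen after values of these genes were seen and are given as descriptions. Genes outside the lists were read at 20 CPM or more over both sides and list genes at 5 CPM or more. Of the members 355 (32.0%) had no Ebf1 UMI and 528 (47.7%) had 3 or more, with median UMIs of 8097 and 9899. Nuclei without Ebf1 held more Drd3 (57.0 against 9.38 CPM, log2 ratio 2.60, 2.17 to 3.06), Col11a1 (93.2 against 16.2 CPM, 2.52), Ankfn1 (104 against 18.1 CPM, 2.53) and the phosphodiesterase Pde11a (2.33), all higher in 6 of 6 libraries. They held less Dach1 (222 against 734 CPM, -1.72), Sgpp2 (-1.71), Acvr1c (-1.62) and Kcna4 (-1.51). Ankfn1, under 20 CPM in nuclei with 3 or more Ebf1 UMIs, passed that limit only through nuclei without Ebf1 and was bound to differ. Of list genes, Casz1 (42.9 against 5.69 CPM, 2.91), Sema5b (2.15), Otof (1.76), Tshz1 (1.37) and Grik3 (71.4 against 28.0 CPM, 1.35) were higher in every library, and Zfp521 (-1.34), Rasgrp2 (-1.10), Cnr1 (-0.94) and Ppp1r1b (52.2 against 92.1 CPM, -0.82) lower. Tac1 was at 56.1 against 48.2 CPM (0.22, -0.06 to 0.49). Other lists moved with this split. Of all 11458 genes 6853 were above 0 and 4605 below, with a median of 0.06. The 4 endothelial genes were all below 0 (median -0.70), as were 20 of 22 shared striatal genes (median -0.58). Of 7 direct-pathway genes read 5 were below 0 (median -0.41). The 5 indirect-pathway and 3 excitatory neuron genes read were above 0 (medians 1.3 and 0.48). The part of these lists in the ratios was not tested.

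Casz1, Otof, Col11a1, Tshz1, Cacng5 and Foxp2 are genes of the so-called eccentric striatal projection neurons. Against indirect-pathway nuclei 6 of 7 such genes were read, with a median log2 ratio of 0.57. Foxp2 (1.60) and the collagen Col11a1 (1.06) were at least 2-fold higher, beside 0.384% of all genes. Otof was at 0.49, Tshz1 at 0.65, Casz1 at 0.33 and Cacng5 at -0.73. Tshz1, a zinc-finger factor, was caught with at least 2 UMIs in 144 members (13.0%) and with none in 755. Nuclei with Tshz1 were deeper (median 11702 against 8161 UMIs). They held more Ankfn1 (158 against 17.2 CPM, 3.2, 2.89 to 3.51), Casz1 (57.5 against 7.50 CPM, 2.94), the receptor kinase Alk (223 against 49.8 CPM, 2.17), Vwc2l (2.20), Sema5b (218 against 53.2 CPM, 2.03), Otof (1.71) and Adarb2 (1158 against 513 CPM, 1.17), and less Bmp6 (31.6 against 85.0 CPM, -1.42), Ror1 (73.8 against 188 CPM, -1.35), Ebf1 (231 against 412 CPM, -0.84) and Calb1 (-0.81). Ankfn1 ranged from 86.3 to 255 CPM over libraries in these nuclei and from 5.58 to 23.2 CPM in those without Tshz1, with no overlap. It passed the 20 CPM limit only through nuclei with Tshz1 and was bound to differ. Khdrbs3 (1.03) and Bach2 (0.94), which were high in striosome-type nuclei, were also higher in all 6 libraries here. All 6 striosome list genes were above 0 (median 0.78) and all 6 matrix list genes below 0 (median -0.65). Of all 11440 genes 5810 were above 0 and 5630 below in this split, with a median of 0.01. The 5 oligodendrocyte genes were all above 0 (median 1.24, none in every library). So were the 5 indirect-pathway and 3 excitatory neuron genes read (medians 1.28 and 0.53). Below 0 were 7 of 8 direct-pathway genes read (median -0.51) and 18 of 22 shared striatal genes (median -0.59). The part of these lists in the ratios was not tested.

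Drd3, which is known from the ventral striatum and the islands of Calleja, had at least 1 UMI in 158 members (14.3%). These nuclei held more Casz1 (50.2 against 12 CPM, log2 ratio 2.07), Otof (102 against 28.6 CPM, 1.83), Col11a1 (103 against 30.6 CPM, 1.76), Sox1ot (104 against 31.1 CPM, 1.75) and Isl1 (32.9 against 17.1 CPM, 0.94), and less Phex (15.6 against 69.4 CPM, -2.15), Klhl1 (20.2 against 81.3 CPM, -2.01), the cannabinoid receptor Cnr1 (36.9 against 121 CPM, -1.71) and Ebf1 (193 against 398 CPM, -1.05). Phex was at 9.22 to 19.7 CPM over libraries in nuclei with Drd3 and at 54.2 to 94.3 CPM in the others. It passed the 20 CPM limit only through nuclei without Drd3 and was bound to differ. Otof and Isl1 were higher in 5 of 6 libraries and the other genes named held their direction in all 6. Of the shared striatal list 19 of 22 were below 0 (median -0.36), the 5 oligodendrocyte and 3 excitatory neuron genes read were below 0 (medians -0.25 and -0.40), and 4 of 5 astrocyte genes were (median -0.50), beside 5884 of 11467 genes and a median of -0.0093 for all genes. Their part in the ratios was not tested.

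Cnr1 and Crym mark lateral and medial striatum. With at least 2 UMIs of one and none of the other, 182 members were Cnr1-type and 122 Crym-type (median 9829 and 9381 UMIs). Cnr1-type nuclei held more Phex (122 against 18.6 CPM, 2.72, 2.12 to 3.37), the scavenger receptor Colec12 (2.45), the homeodomain factor Meis1 (174 against 35.8 CPM, 2.28) and Il1rapl2 (2.15), and less Drd3 (3.85 against 40.2 CPM, -3.38, from 8 and 54 UMIs), netrin Ntn1 (14.9 against 87.2 CPM, -2.55), the GDNF receptor Gfra1 (21.2 against 90.9 CPM, -2.10) and the phosphodiesterase Pde1a (99.2 against 326 CPM, -1.72), all in 6 of 6 libraries. Pdyn was lower in every library (8.67 against 17.9 CPM, -1.04, -2.01 to -0.10) on 18 and 24 UMIs. Of all 11286 genes 4996 were above 0 and 6288 below, with a median of -0.05. Of the shared striatal list 19 of 22 were above 0 (median 0.43) and of the immediate early genes 10 of 12 (median 0.69). Below 0 were 4 of 5 oligodendrocyte genes (median -0.30) and 3 of 4 microglial genes (median -0.35). The part of these lists in the ratios was not tested. Of the region list against indirect-pathway nuclei, 5 of 8 genes were read (median 0.36): Drd3 (0.98), Wfs1 (0.42), Crym (0.36), Cnr1 (-0.12, but 0.089 with at least 2 Drd1 UMIs) and Synpr (-0.20).

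**Figure D4:**
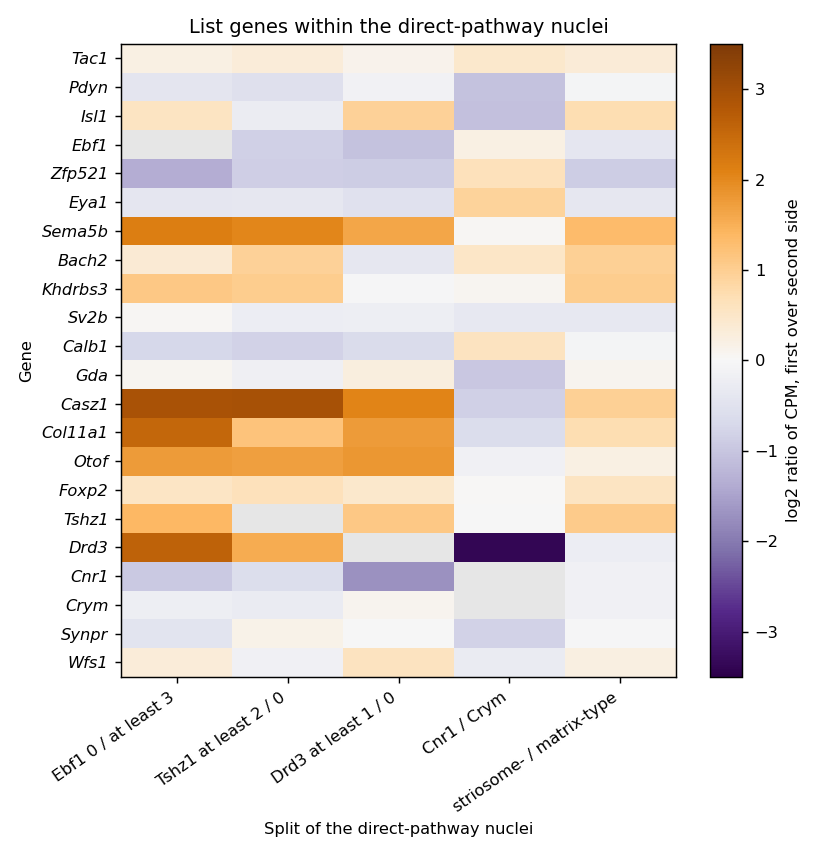
Log2 ratio of CPM (colour scale centred on 0) of 22 list genes in 5 splits of the direct-pathway nuclei, each column being the first side over the second. Grey cells are genes that made the split. Casz1, Col11a1, Otof and Sema5b are high together in nuclei without Ebf1, with Tshz1 and with Drd3, and Drd3 is lowest in the Cnr1 over Crym column (-3.38). In that column Drd3 passed the 5 CPM limit only through Crym-type nuclei.

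Genes of other cells were counted in the members. The microglial list (Csf1r, Cx3cr1, P2ry12, C1qa) summed to 51.4 CPM (39.6 to 60.2 over libraries), against 727 CPM in the microglia gate, which was set by 3 of these genes, and 43.5 CPM in cortical excitatory nuclei. Oligodendrocyte genes (5, with Mbp and Mobp among them) summed to 736 CPM in the members (141 to 1197 over libraries) and to 707 CPM in indirect-pathway nuclei (239 to 1250), astrocyte genes to 627 CPM (277 to 867), OPC genes to 55.6 CPM (25.2 to 69.8), endothelial genes to 97.6 CPM (41.7 to 170) and excitatory genes to 90.2 CPM (38.9 to 124). Interneuron genes summed to 756 CPM (534 to 895), nearly all of it Adarb2 (718 CPM). Adarb2, an RNA-editing family gene used as an interneuron marker, was higher in the members than in indirect-pathway nuclei of every library (521, 743 and 847 against 83.9, 249 and 375 CPM, log2 ratio 1.57). It was at 824 CPM in the microglia gate, above the members, and at 299 and 263 CPM in the endothelial and cortical excitatory gates. Of the other interneuron genes, Lhx6, limited by the rule, had 14 UMIs, Chat had 20, and Sst was at 16.5 against 18.3 CPM. All 4 endothelial genes were below the indirect-pathway nuclei (median log2 ratio -0.45), with Slco1a4 (-0.95) and Flt1 (-0.55) the lowest. Without nuclei with 2 or more UMIs of the 12 glial and vascular markers Flt1 was at 0.015 and Slco1a4 at -0.27. Of the members 46.9% and of the indirect-pathway nuclei 46.5% had at least 2 UMIs summed over 12 glial and vascular markers. No doublet caller was run.

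Levels over libraries were even for most genes. Of 3338 genes with at least 50 CPM in the members, 268 (8.03%) differed at least 2-fold between the highest and the lowest library, and the median of this ratio was 1.33. Tsix, Mobp, mt-Atp6 and St18 were among the 5 genes with the largest ratio. Tsix, the antisense partner of the X-inactivation transcript, was at 168, 11.3, 188, 6.92, 7.20 and 62.9 CPM in libraries 1 to 6, a ratio of 27.2. Mobp, a myelin gene, was at 152, 129, 44.4, 72.7, 41.0 and 14.4 CPM, lowest in library 6. The mitochondrial gene mt-Atp6 was at 110, 245, 132, 66.3, 36.0 and 26.1 CPM, and St18, an oligodendrocyte factor, at 121, 93.9, 25.9, 40.4, 13.0 and 25.2 CPM. Cortical excitatory nuclei of the same libraries held Mobp at 11.3 to 116 CPM, also highest in libraries 1 and 2 and lowest in library 6. Grik3, Chrm3 and Penk were also lowest in the members of libraries 5 and 6 (Grik3 17.3 and 23.4 CPM, Chrm3 57.6 and 93.4 CPM, Penk 10.1 and 9.88 CPM), where the excitatory list was also lowest (38.9 and 52.1 CPM). The part of other cells' RNA in these levels was not tested.

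**Figure D5:**
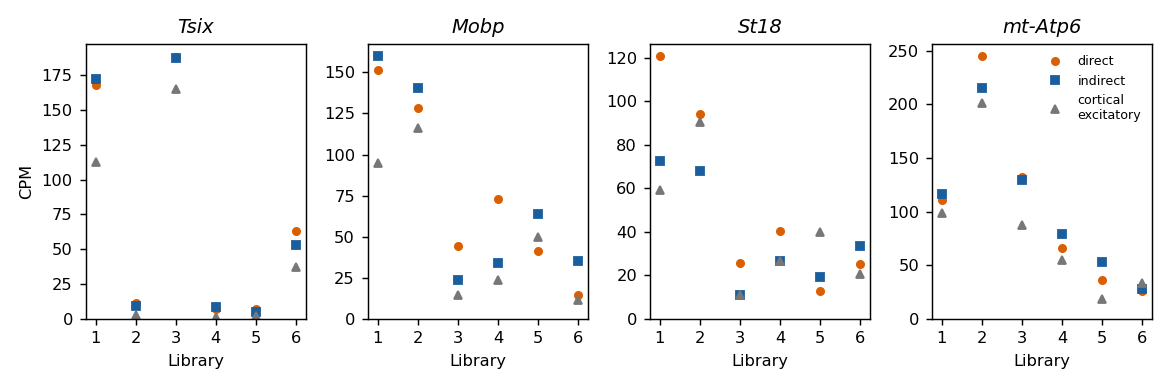
CPM of Tsix, Mobp, St18 and mt-Atp6 in libraries 1 to 6, for direct-pathway (circles), indirect-pathway (squares) and cortical excitatory nuclei (triangles), 1 point per library and gate. Mobp runs from 14.4 to 152 CPM in the direct-pathway nuclei, and in all 3 gates it is highest in libraries 1 and 2.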

How the data were processed

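Nuclei from frozen forebrain were profiled with a 10x Genomics 3′ droplet assay. The authors deposited UMI counts per gene and barcode as whole numbers, not normalized, in 1 matrix of 32285 genes and 75878 barcodes with 497750379 UMIs. The file header names Cell Ranger 6.0.0, and per the labels Cell Ranger 2.1.1 and the mm10 build were used. The study's methods describe STARsolo on GRCm38, removal of empty droplets and doublets, and imputation, and no source used here says which of these runs made the deposited matrix. The matrix holds no key from barcode suffix to mouse, so the planned genotype test was not run.

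Here 11 barcodes with 10% or more mitochondrial UMIs were left out. No doublet caller was run. Raw UMIs were summed over the nuclei of a gate and given as CPM (UMIs per 1000000 UMIs of the gate). Ratios are log2 ratios of summed CPM with exact binomial 95% intervals, levels have exact Poisson intervals and shares exact Clopper-Pearson intervals, all for counting error only. Genes with at least 5 CPM over both sides were read, and 2-fold was the threshold for counts. The calculation was run on simulated Poisson counts, which hold no further spread between nuclei or libraries. That run checks the arithmetic under counting error only. Members, gene lists and splits were chosen with earlier results of these data known. Genes were named by list (the 3 highest and 3 lowest of longer lists, all of short ones), by the 10 highest and 10 lowest ratios with 1 sign in every library (8 and 8 within the members, and the 10 highest against all other nuclei), and by the 5 largest ratios between libraries at 50 CPM or more. Genes named in the Ebf1, Tshz1, Drd3 and Cnr1 splits were chosen after their values were seen. Python 3.11.15, numpy 2.4.6, scipy 1.17.1, pandas 2.3.3 and edgeR 4.0.16 (TMM factors, as an alternative) were used. Gene positions are from GENCODE for GRCm38 and promoter sequences from RefSeq. Values of some genes that these rules would name are not reported here.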

Additional observations from a re-analysis of the deposited data

How the results depend on the processing

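No paired analysis was possible because the replicate numbers of the labels, which WT and Npc1-/- mice share, cannot be tied to the libraries, and those groups were not compared. Both gates and both sides of each split come from the same 6 libraries, and their ratios within libraries are given as counts of libraries. No test was run on them, since the nuclei were chosen by counts of the same libraries. The members' share of nuclei (1.46%) was 0.405% with at least 2 Drd1 UMIs, 1.23% with at least 3 Rgs9 and 5 Pde10a UMIs, 1.06% with no Drd2, Slc17a7 or Lhx6 UMI, 1.31% without nuclei above the 90th percentile of UMIs, 0.775% without nuclei with 2 or more glial UMIs and 1.32% without those with 5 or more, a limit added after seeing the data. It stayed within its interval at under 1% mitochondrial UMIs.

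Between direct- and indirect-pathway nuclei, the 44 genes at least 2-fold higher became 19 at 20 CPM or more and 1182 with no filter, and the 32 lower genes became 16 and 861. With at least 2 Drd1 UMIs 77 genes were lower, and without nuclei with 2 or more glial UMIs 61. TMM factors gave 40 and 33. Leaving out 1 library at a time gave 45 to 50 higher and 31 to 41 lower genes. None of the 3 summed lists changed direction under the alternatives run. Of the 96 genes named in this comparison that were run, 19 changed sign under at least 1 of them, 14 of these with a reported 95% interval that includes 0. The other 5 were Cnr1 (0.089), Gabbr2 (-0.0046) and Grin3a (-0.023) with at least 2 Drd1 UMIs, and Flt1 (0.015) and Gabra4 (0.0054) without nuclei with 2 or more glial UMIs. Of the values of these genes and lists, 878 stayed within the reported interval (for lists, a fixed margin) and 165 did not, and with 1 library left out these were 559 and 32. Ebf1 (2.61) was at 3.44 without nuclei above the 90th percentile of UMIs and at 3.68 and 3.52 without nuclei with 2 or 5 glial UMIs or more, 9330185C12Rik (3.16) was at 4.09 and Zfp521 (1.72) at 2.46 without nuclei with 2 or more glial UMIs, 9330185C12Rik was at 3.75 without library 2, and Gpr6 (-2.76) was at -3.58 without library 2. Upb1 (-6.07) was between -6.87 and -5.66 with 1 library left out and at -5.20 without nuclei with 2 or more glial UMIs. The summed direct-pathway list ratio was between 1.98 and 2.76 (2.06 as reported) and the indirect-pathway list between -2.12 and -1.86 (-1.94).

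Between striosome-type and matrix-type nuclei, the 116 higher genes became 216 without nuclei above the 90th percentile of UMIs and 21 at 20 CPM or more, an added limit under which the 280 lower genes became 32. Leaving out 1 library at a time gave 128 to 194 higher genes (194 without library 3) and 327 to 375 lower ones. Of the 32 genes named in this comparison that were run, 3 (Calb1, Gda and Pdyn, each with an interval that includes 0) changed sign. The summed striosome list ratio stayed between 1.01 and 1.24. Gm31045 (1.49) was at 0.65 with at least 3 UMIs for the split, and Entpd1 (-1.52) at -2.18 without nuclei above the 90th percentile of UMIs. The cause of these moves was not tested, beyond the smaller or larger number of genes read under another filter. Of the 1108 members 801 had a single Drd1 UMI, and the part of depth in this was not tested.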

Other observations

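The 117 striatal nuclei with at least 1 Drd1 and 2 Drd2 UMIs belonged to neither gate. They were deep (median 12788 UMIs, against 8764 in the members), and they numbered between 1 and 37 per library. They held 359 CPM of the direct-pathway list and 894 CPM of the indirect-pathway list, between the members (655 and 339 CPM) and the indirect-pathway nuclei (157 and 1302 CPM). The eccentric list summed to 574 CPM in them, against 966 CPM in the members and 380 CPM in the indirect-pathway nuclei. Foxp2 was 790 of the 966 CPM in the members and 260 of the 380 CPM in the indirect-pathway nuclei, and its level in the 117 nuclei is not given. The indirect list outnumbered the direct list in 82.9% of the 117 nuclei, against 57.2% of all nuclei.

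Of the 2939 striatal nuclei without a Drd1, Drd2 or Adora2a call, 45.5% held more of the direct and 45.4% more of the indirect list. They cannot be counted by pathway from this, since over all nuclei the shares were 23.1% and 57.2%. Their shared striatal list summed to 8387 CPM, against 11381 CPM in the members and 12742 CPM in the indirect-pathway nuclei, and their eccentric list to 786 CPM.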
